A study of Mus musculus with 2 samples.

Results

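Border-associated macrophages of the mouse cortex at postnatal day 5 were described in single-cell transcriptomes of 1 wild-type library (WT) and 1 library of Katnal2 mutants (Mut). Katnal2 is a gene related to the microtubule-severing ATPase katanin. Kept barcodes had 1000 or more UMIs (unique molecular identifiers, the counted RNA molecules), 500 or more genes and no more than 20% of UMIs from mitochondrial genes. A kept barcode was taken as a border-associated macrophage when at least 3 of the 8 genes Mrc1, Pf4, Lyve1, Cd163, F13a1, Ms4a7, Cbr2 and Stab1 were detected and C1qa, C1qb and C1qc together gave at least 3 UMIs. This held for 124 of 11024 kept barcodes in WT and 288 of 10102 in Mut, 412 of 21126 in all. Cortex was dissociated with trypsin and then collagenase and sorted by flow cytometry before loading, per the labels' protocols, which also mention freezer storage. The sort gate, the kit chemistry, the mutated part of Katnal2 and the strain are not given in the sources used here. Although the submitters' design text counts 3 replicates for each sample, no barcode can be assigned to an animal, so each genotype is 1 sample and every interval below is a 95% interval for counting error only. No test between genotypes was possible, and genotype, animals and dissection cannot be told apart.

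Border-associated macrophages live where the brain meets its coverings and its blood supply: in the meninges, in the spaces around vessels and in the choroid plexus. Like microglia, the macrophages inside the brain tissue, they depend on the receptor Csf1r and descend largely from yolk sac precursors. They are known for taking up soluble material from the fluid around them through scavenger and lectin receptors such as the mannose receptor Mrc1 and the hyaluronan receptor Lyve1.

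The macrophages had a median of 7383 UMIs and 2458 genes in WT and 7689 UMIs and 2585 genes in Mut, against 6446 and 7626 UMIs in all kept barcodes. Their summed UMIs were 1020094 in WT and 2490441 in Mut. Microglia, used for comparison, had at least 3 of 9 microglia genes, fewer than 3 of the 8 macrophage genes and at least 3 C1q UMIs. They numbered 471 and 366 with a median of 6165 and 7249 UMIs. Both libraries hold cells of both sexes, read from Xist and from 4 Y-linked genes in each cell. Among macrophages with 1 kind of signal, 69.9% were female in WT (60.1 to 78.6) and 62.1% in Mut (55.5 to 68.3). Of all kept barcodes with 1 kind of signal, 47.3% were female in WT and 65.6% in Mut. Both kinds of signal, which 1 cell alone should not give, were seen in 7.26% and 5.90% of the macrophages against 2.73% and 3.99% of all kept barcodes. No macrophage barcode was a macrophage in both libraries, and 39 kept barcodes were shared by the libraries in all.

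How many of the 8 genes each C1q-positive cell held is what the rule uses, so these numbers are given as a description. In WT, 131 cells with C1q had 2 of the genes, just outside the rule, and 10 had 3, just inside it. Then 2 cells had 4 genes, 3 had 5, 15 had 6, 52 had 7 and 42 had all 8. In Mut, 128 cells had 2 genes, 7 had 3, 8 had 4, 8 had 5, 35 had 6, 93 had 7 and 137 had all 8. In both libraries the numbers were lowest at 3 to 5 genes.

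**Figure D1:**
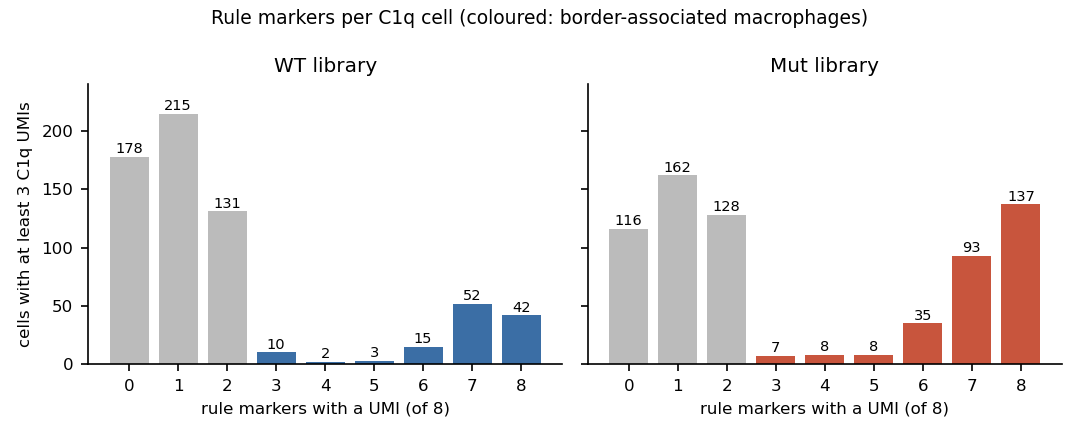
Number of kept C1q-positive cells (y axis) by how many of the 8 macrophage genes were detected (x axis), in the WT and the Mut library. Few cells lie at 3 to 5 genes, and 109 WT and 265 Mut cells have 6 or more.

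Cells at the edge of the rule held more microglia RNA than the cells with 6 or more genes. Of the cells with exactly 3 genes, 7 of 10 in WT and 7 of 7 in Mut also had at least 3 microglia genes. Their summed level of P2ry12, the purinergic receptor of resting microglia, was 405 and 740 CPM (UMIs scaled to a total of 1000000). In the cells with 6 or more genes P2ry12 was at 103 CPM in WT cells and 128 in Mut cells, and Mrc1 at 3500 and 3967. Cells just outside, with 2 genes, had P2ry12 at 872 and 845 CPM. A further 2 WT and 7 Mut barcodes had at least 3 genes but fewer than 3 C1q UMIs and were left out. These values chose the cells and are given as a description.

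The 5 defining genes given for this cell type were all detected in most of the cells. All 5 are genes of the rule, so their detection follows in part from how the cells were chosen. Mrc1 (ENSMUSG00000026712, GRCm38 chr2:14229392-14332057, plus strand) encodes the mannose receptor and stood at 3077 CPM in WT cells and 3750 in Mut cells. It was detected in 98.4% and 99.3% of the macrophages, against 0.734% and 1.76% of astrocytes. In microglia Mrc1 was also present, at 201 and 235 CPM. Astrocytes served as a background of cells that should lack Mrc1 (median 8477 and 9757 UMIs). Because Mrc1 helped choose the macrophages, this contrast is given as a description and does not test their identity. Pf4 (ENSMUSG00000029373, chr5:90772435-90773383, plus strand), the chemokine platelet factor 4, stood at 4140 and 5272 CPM. F13a1 (chr13:36867178-37050244, minus strand), the A subunit of clotting factor XIII, stood at 1256 and 1165 CPM. Ms4a7 (chr19:11321039-11336146, minus strand), a membrane protein of the MS4A family, stood at 655 and 658 CPM. Cbr2 (chr11:120729489-120732114, minus strand), a carbonyl reductase, stood at 315 and 316 CPM.

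Of the other rule genes, Lyve1 (chr7:110850607-110863239, minus strand) stood at 1278 CPM in WT cells and 1613 in Mut cells. Cd163 (chr6:124304656-124330527, plus strand), the receptor for haemoglobin bound to haptoglobin, stood at 303 and 330 CPM. Stab1 (chr14:31139013-31168641, minus strand), a scavenger receptor, stood at 919 and 1119 CPM. C1qa, C1qb and C1qc, neighbours on chromosome 4 that encode the chains of complement C1q, stood at 2956, 3295 and 2755 CPM in WT and 2816, 3079 and 2677 in Mut. Per cell, the median was 26 Mrc1 UMIs in WT and 31 in Mut, and 30 and 44 Pf4 UMIs. It was 10 and 11 Lyve1 UMIs, 8 and 9 F13a1 UMIs, and 1 and 2 Cd163 UMIs, so a Cd163 zero in a cell is often within reach of depth.

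Promoters of the rule genes were searched for the PU-box, with letters GAGGAA or, on the other strand, TTCCTC, which are bound by the macrophage factor PU.1. Of the 8 genes, 7 had an entry in the RefSeq promoter table of GRCm38.p6, and 5 of these had the letters in the 250 bases before a start. That is 5 of 9 windows (55.6%), against 7639 of all 32851 windows of this length (23.3%). The Maf site, with letters TGCTGAC or, on the other strand, GTCAGCA, was in 0 of the 9 windows and in 3.81% of all windows. These 4 windows are shown because they stand before genes that define the cells, and PU-box letters are in capitals. They run 5′ to 3′ on the gene's strand: Mrc1 at chr2:14229164-14229413 (plus), Pf4 at chr5:90772185-90772434 (plus), F13a1 at chr13:37050245-37050494 (minus) and Stab1 at chr14:31168642-31168891 (minus).
Mrc1: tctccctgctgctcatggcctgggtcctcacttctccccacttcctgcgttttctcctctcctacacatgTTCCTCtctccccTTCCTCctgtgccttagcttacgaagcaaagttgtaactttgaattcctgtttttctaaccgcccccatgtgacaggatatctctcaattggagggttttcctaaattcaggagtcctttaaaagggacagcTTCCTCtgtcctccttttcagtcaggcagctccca
Pf4: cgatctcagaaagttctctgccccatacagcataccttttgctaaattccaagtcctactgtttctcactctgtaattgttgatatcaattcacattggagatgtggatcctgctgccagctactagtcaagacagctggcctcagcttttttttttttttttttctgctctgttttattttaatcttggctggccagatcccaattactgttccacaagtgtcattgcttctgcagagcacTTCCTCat
F13a1: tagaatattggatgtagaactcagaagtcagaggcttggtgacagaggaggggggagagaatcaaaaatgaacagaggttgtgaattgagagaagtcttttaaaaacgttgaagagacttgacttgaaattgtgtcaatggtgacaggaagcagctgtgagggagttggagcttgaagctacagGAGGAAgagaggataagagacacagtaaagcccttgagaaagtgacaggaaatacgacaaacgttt
Stab1: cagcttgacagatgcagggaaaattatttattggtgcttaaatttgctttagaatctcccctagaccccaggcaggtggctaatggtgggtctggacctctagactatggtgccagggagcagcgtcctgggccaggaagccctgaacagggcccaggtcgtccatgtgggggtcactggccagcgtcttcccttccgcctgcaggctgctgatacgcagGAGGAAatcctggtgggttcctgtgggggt
The Mrc1 window held 3 matches and each of the other windows shown held 1. The other F13a1 window of the table held none. A match is a run of letters and not a measured binding site.

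Macrophages were compared with microglia on summed CPM with 5 CPM added, and 129 of 10486 genes (1.23%) were at least 4-fold higher in the macrophages in both libraries, while 31 (0.296%) were at least 4-fold lower. The genes of the rules were left out of the names that follow. The names are the 15 highest and 15 lowest by the smaller of the ratios in the 2 libraries. Microglia were chosen for lacking the 8 macrophage genes and having microglia genes, so genes that follow those would differ by that choice.

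The 15 higher genes included 6 that encode secreted proteins. Ccl24, a chemokine that attracts eosinophils, stood at 2791 CPM in WT macrophages and 2340 in Mut, against 9.47 and 13.2 in microglia. It was detected in 91.1% and 93.1% of the macrophages and in 0.212% and 0.778% of astrocytes. Bmp2, a bone morphogenetic protein, stood at 800 and 1222 CPM against 2.37 and 1.98. Cxcl1, a neutrophil chemokine, stood at 852 and 678 CPM against 4.15 and 3.96. None of these 3 secreted proteins exceeded 13.2 CPM in microglia of either library. Fcna, a ficolin that can start the lectin pathway of complement, stood at 463 and 608 CPM against 2.67 and 2.31. Cfp, the complement regulator properdin, stood at 219 and 230 CPM against 1.48 and 1.98. Retnla, a secreted resistin-like protein, stood at 644 and 725 CPM but came from few cells, as described below.

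The other 9 genes included lectins, a scavenger receptor and a clathrin adaptor. Cd209f, a C-type lectin, stood at 314 CPM in WT cells and 464 in Mut cells and had no UMI in microglia of either library, which allows up to 0.888 and 0.990 CPM there. Clec4n, the lectin dectin-2, stood at 188 and 192 CPM, and Mgl2, a galactose-type lectin with a close paralog in Clec10a, at 213 and 194. Folr2, the folate receptor beta, stood at 362 and 390 CPM against 7.40 and 3.96 in microglia. Cd36, a scavenger receptor for fatty acids and lipoproteins, stood at 192 and 206 CPM. Dab2, a clathrin adaptor, stood at 2051 and 2246 CPM against 75.5 and 87.8. The 3 interferon-inducible genes of one family with similar sequences, Ifi207, Ifi204 and Ifi202b, completed the 15. Ifi207 stood at 249 and 306 CPM, Ifi204 at 139 and 145, and Ifi202b at 134 and 172, and since paralogs can share reads their separate levels are uncertain.

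**Figure D2:**
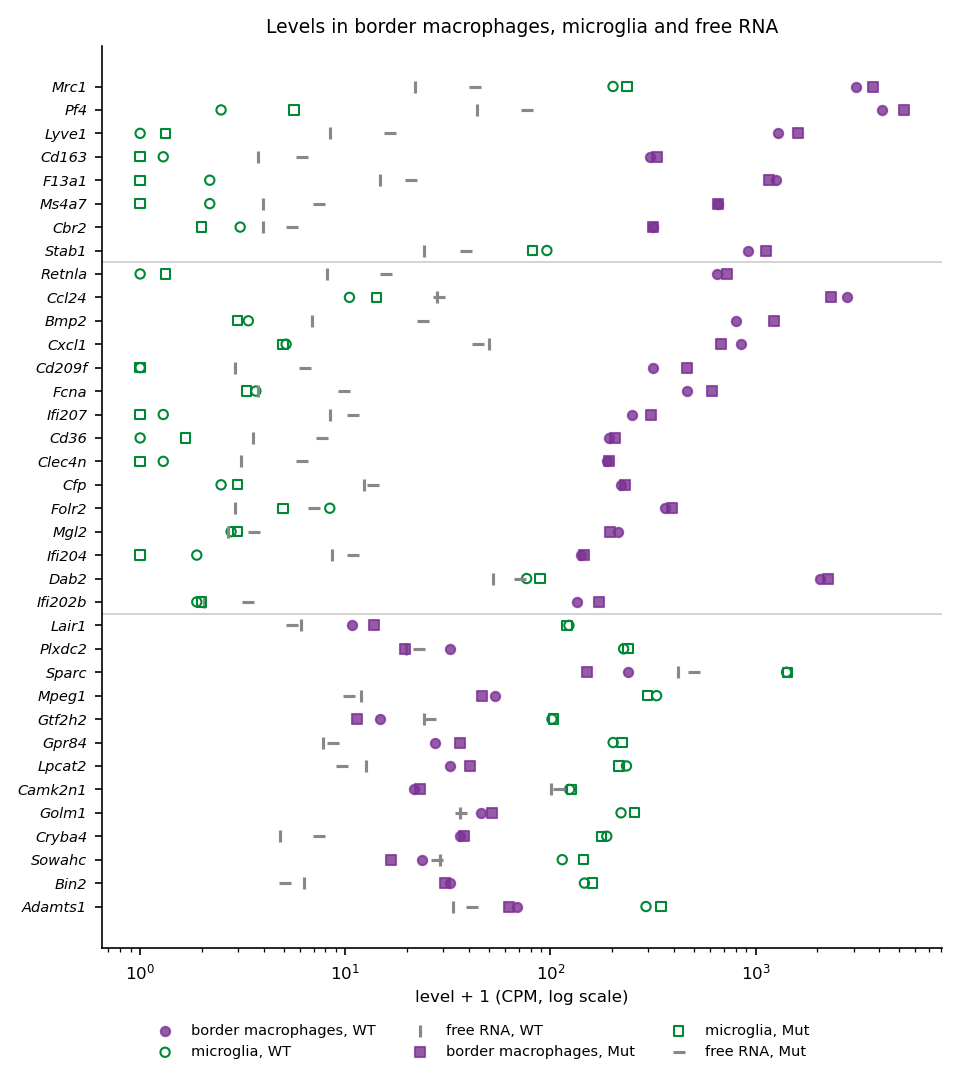
Level plus 1 CPM (x axis, log scale) of the 8 rule genes (top), the 15 genes higher than in microglia (middle) and 13 lower ones (bottom), for summed macrophages, microglia and free RNA of each library. The genes were chosen by the rule or for their ratio to microglia in both libraries, so their distance from microglia follows from that choice. Ccl24 lies at 2791 CPM in WT macrophages and 2340 in Mut, against 9.47 and 13.2 in microglia.

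The lower genes included receptors and matrix genes. Lair1, an inhibitory receptor for collagen, stood at 9.80 CPM in WT macrophages and 12.9 in Mut, against 122 and 119 in microglia. Sparc, a matricellular protein, stood at 238 and 150 CPM against 1413 and 1425. Mpeg1, a pore-forming protein of phagocytes, stood at 52.9 and 45.4 CPM against 328 and 297, and Gpr84, a receptor for medium-chain fatty acids, at 26.5 and 35.3 against 201 and 222. Adamts1, a matrix protease, stood at 67.6 and 61.4 CPM against 291 and 345. Of the promoter windows of the 15 higher genes, 5 of 13 held the PU-box, and of those of the 15 lower genes 1 of 10, beside 23.3% of all windows.

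Gene lists of macrophage functions set these genes in context. Of 20 measured further border macrophage genes, 15 were at least 4-fold higher than in microglia in both libraries. The same held for 10 of 17 scavenger and lectin receptors, 6 of 21 chemokines and cytokines, 5 of 19 interferon-response genes and 5 of 17 matrix and protease genes. It held for 4 of 14 complement genes, 4 of 18 growth factors, 3 of 16 iron and haem genes, 2 of 6 Fc receptors, 2 of 19 clathrin genes and 2 of 16 lipid genes. These shares carry no test, and 1.23% of all genes passed the same rule.

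The chemokines with the highest CPM among those listed were also found in microglia but were higher in the macrophages. Ccl2, which recruits monocytes, stood at 6467 CPM in WT cells and 8120 in Mut cells against 985 and 855 in microglia. Cxcl2, which recruits neutrophils, stood at 6526 and 7425 CPM against 631 and 500. Per cell, the median was 49.5 Ccl2 UMIs in WT and 69.5 in Mut, with a highest value of 175 and 202. Fcgrt, the neonatal Fc receptor that recycles antibody, stood at 924 and 976 CPM against 137 and 145. Lyz2, lysozyme, stood at 2416 and 3076 CPM against 385 and 297, and Lgals1, galectin-1, at 1192 and 1431 against 95.9 and 145.

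Several genes of lipid and endosomal handling followed. Apoe, a lipid carrier, stood at 21843 CPM in WT cells and 23218 in Mut cells, with a median of 163 and 182 UMIs per cell. Microglia had 9922 and 8310 CPM. Ctsc, cathepsin C, stood at 1072 and 1276 CPM against 213 and 223, whereas Ctsb, cathepsin B, stood at 2336 and 2798 against 2342 and 2344. The 31 lysosomal genes as a list lay near microglia, with a median log2 ratio of 0.10 in WT and 0.25 in Mut, and Ctsc was the 1 gene at least 4-fold higher in both libraries. Snx2, a retromer-associated sorting nexin, stood at 688 and 794 CPM against 214 and 232. The 25 endosome and retromer genes had a median of 0.32 and 0.20, with none past 4-fold in both libraries. Maf, a transcription factor of tissue macrophages, stood at 1187 and 1446 CPM against 587 and 597. Across the 16 core macrophage genes the median was -0.04 and -0.01, and 1, Lyz2, was at least 4-fold higher. Csf1r stood at 966 and 1246 CPM against 1189 and 1254.

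Antigen presentation by MHC class II was hardly detected. H2-Aa and H2-Ab1, chains of class II molecules, each had 1 UMI in the macrophages of each library, and H2-Eb1 none in WT and 1 in Mut. At least 3 of the 7 class II genes were detected in 1 of 124 WT and 2 of 288 Mut macrophages, 0.806% and 0.694%, below the 1.91% and 2.71% of astrocytes. Cd74, the class II invariant chain, was detected in 43.5% and 39.9% of macrophages against 2.03% and 3.15% of astrocytes. Its level was 153 and 111 CPM. The 7 class II genes, Cd74 among them, summed to 173 and 124 CPM in macrophages and to 201 and 190 in microglia. Class II RNA was thus not higher in the macrophages than in microglia. Ccr2, a receptor of blood monocytes, had no UMI in the 124 WT macrophages, which allows up to 2.42% of cells with a UMI, and was seen in 1 Mut macrophage. Of 15 monocyte and leukocyte genes, 13 were at 0 in WT and 11 in Mut, and their sum was 14.7 and 4.02 CPM. Katnal2 itself gave 3 UMIs in WT and 1 in Mut macrophages (2.94 and 0.402 CPM), against 2.11 and 3.87 CPM in free RNA, so these cells do not check the genotype labels.

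Border-associated macrophages were a larger share of the Mut library than of the WT library. They were 1.12% of kept barcodes in WT (0.936 to 1.34) and 2.85% in Mut (2.54 to 3.19), a ratio of 2.53 (2.05 to 3.15). Microglia were 4.27% in WT and 3.62% in Mut, giving a ratio of 0.848 (0.738 to 0.974). Fibroblasts, which build the meninges, were 0.590% in WT and 1.73% in Mut, giving a ratio of 2.94 (2.20 to 3.97), and endothelial cells had a ratio of 1.24 (1.09 to 1.42). Per fibroblast there were 1.91 macrophages in WT (1.40 to 2.62) and 1.65 in Mut (1.36 to 2.0), intervals that overlap. Among female cells there were 1.47 per fibroblast in WT (1.01 to 2.16) and 2.03 in Mut (1.52 to 2.73), and among male cells 2.82 (1.38 to 6.21) and 1.31 (0.945 to 1.83), so the order was opposite in the sexes. Per endothelial cell there were 0.297 in WT (0.241 to 0.364) and 0.608 in Mut (0.523 to 0.705). Per microglial cell there were 0.263 in WT (0.214 to 0.321) and 0.787 in Mut (0.672 to 0.921). The amount of meninges carried along with the cortex in each library is not known, and its part in the share was not tested.

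The difference in share was present in both sexes and of unequal size. Female macrophages were 72 of 3822 female cells in WT (1.88%, 1.48 to 2.37) and 144 of 5248 in Mut (2.74%, 2.32 to 3.22), a ratio of 1.46 (1.09 to 1.96). Male macrophages were 31 of 4258 male cells in WT (0.728%, 0.495 to 1.03) and 88 of 2757 in Mut (3.19%, 2.57 to 3.92), a ratio of 4.38 (2.88 to 6.83). The intervals of the 2 ratios do not overlap. Fibroblasts showed the same split, with a ratio of 1.06 (0.723 to 1.55) among females and 9.41 (4.94 to 19.7) among males. Male WT cells, with 11 fibroblasts and 31 macrophages, were thus low in both types. Microglia had ratios of 0.857 and 0.706 in female and male cells.

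**Figure D3:**
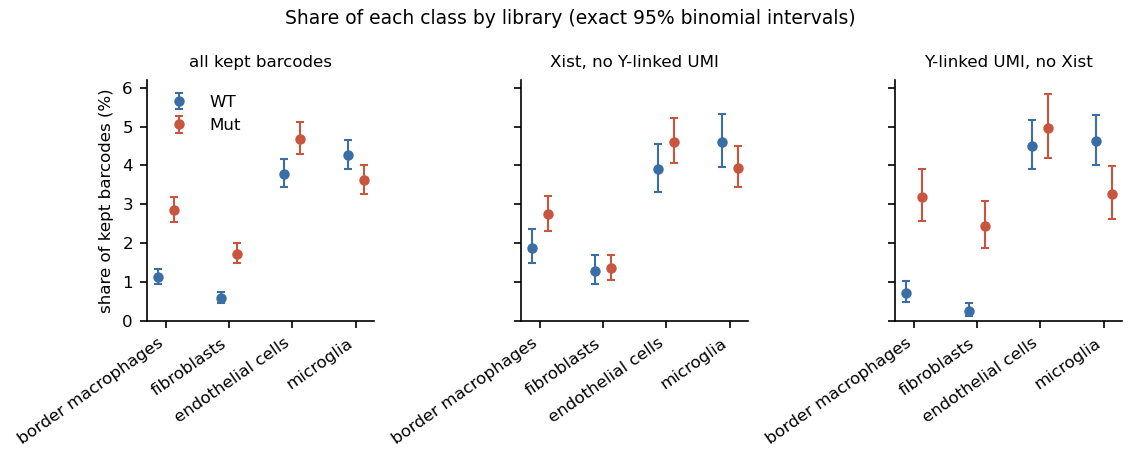
Share of kept barcodes (y axis, percent, with exact 95% intervals for counting error) of border-associated macrophages, microglia, fibroblasts and endothelial cells in WT and Mut, over all cells and in female and male cells. Macrophages and fibroblasts are low together in male WT cells, at 0.728% and 0.258%.

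Free RNA, taken from barcodes with 10 to 100 UMIs, showed most of the macrophage genes at a higher level in Mut as well. All 8 rule genes were higher in Mut free RNA, by ratios of 1.46 to 2.18 with a median of 1.82. Their sum was 117 CPM in WT free RNA and 207 in Mut free RNA, giving a ratio of 1.77 (1.59 to 1.97). Among the 15 genes higher than in microglia, 14 had a ratio above 1 in free RNA, with a median of 2.07. Of these Ccl24 was level, with a ratio of 1.02 (0.792 to 1.31), and the intervals of Ifi207, Cfp, Mgl2, Ifi204 and Ifi202b include 1. Cxcl1 had a ratio of 0.876 (0.722 to 1.06). The 15 summed to 181 and 248 CPM, a ratio of 1.37 (1.25 to 1.5). The 9 microglia genes summed to 113 and 103 CPM, a ratio of 0.908 (0.801 to 1.03), and the 6 fibroblast genes to 117 and 175 CPM, a ratio of 1.49.

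Within the macrophages, most genes lay within 1.5-fold between Mut and WT. Of 8808 genes with at least 30 UMIs over both libraries, 378 (4.29%) were at least 1.5-fold higher in Mut and 406 (4.61%) at least 1.5-fold lower, 8.9% in either direction, on CPM with 5 CPM added. The median log2 ratio over all of them was 0.01, and 0.09 over 10263 genes of microglia, of which 2.75% were higher and 0.935% lower. Microglia of WT summed 3377584 UMIs against 1020094 for the macrophages, so these shares are not set against each other. Female and male macrophages, compared separately, gave the same direction for 4381 of the 8808 genes (49.7%). For the 784 genes past 1.5-fold it was 586 (74.7%). Those genes were chosen on the same cells, so their higher share follows in part from that choice. The balance of genes past the fold moved with the cells used, from 356 higher and 562 lower without cells holding 3 microglia genes to 470 and 284 in cells with 6 or more rule genes.

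The rule genes chose the cells, so their ratios between the libraries are given as a description. Mrc1 had a ratio of Mut to WT of 1.22 (1.17 to 1.27), Pf4 of 1.27 (1.23 to 1.32), Lyve1 of 1.26 (1.19 to 1.34) and Stab1 of 1.22 (1.13 to 1.31). F13a1 had a ratio of 0.928 (0.868 to 0.991), and Ms4a7, Cbr2 and Cd163 had intervals that include 1. The median log2 ratio of the 8 genes was 0.20 in all macrophages, -0.06 in female and 0.42 in male cells, and none of the 8 was past 1.5-fold. In the cells with 6 or more rule genes, Mrc1 stood at 3500 CPM in WT cells and 3967 in Mut cells, and Pf4 at 4770 and 5564. There Cd163 stood at 354 and 353 CPM, Ms4a7 at 743 and 695, Cbr2 at 365 and 333, and F13a1 at 1459 and 1237, so these 4 were level or lower in Mut.

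The genes named next had the same direction in female and male macrophages and a level above that of free RNA in the library where they were higher. The enzyme gene Aldh2, a mitochondrial aldehyde dehydrogenase, led those higher in Mut. It stood at 112 CPM in WT cells and 313 in Mut cells, giving a ratio of 2.80 (2.30 to 3.44), and free RNA was at 92.0 and 86.9 CPM. It was detected in 55.6% of WT and 84.4% of Mut macrophages. The log2 ratio was 1.39 in female and 1.35 in male macrophages, 0.83 in microglia and -0.05 in astrocytes. Aldh2 was thus higher in Mut in both sexes and in microglia, and not in astrocytes or free RNA.

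Signalling genes followed Aldh2. Tnfsf18, the ligand of the T-cell receptor GITR, stood at 57.8 CPM in WT cells and 122 in Mut cells, giving a ratio of 2.12 (1.60 to 2.85), and at 2.67 and 1.32 CPM in microglia. P2rx7, an ATP-gated channel, stood at 81.4 and 157 CPM, a ratio of 1.92 (1.52 to 2.47). Il1a, the cytokine interleukin 1 alpha, stood at 126 and 227 CPM, a ratio of 1.79 (1.48 to 2.19), and in microglia at 428 and 392. The 3 are among the genes ranked highest by this ratio, so intervals above 1 follow in part from that choice. They cover counting error only and are not a test. Of the 3, P2rx7 was also higher in Mut microglia, at 58.8 CPM against 45.0 in WT. Ccrl2, an atypical receptor that binds chemerin, stood at 193 and 344 CPM, and its log2 ratio was 0.30 in female macrophages and 1.46 in male ones. Cd38, an enzyme that uses NAD, stood at 110 and 184 CPM, with 0.65 in both sexes. Ncf1, a subunit of the phagocyte NADPH oxidase, stood at 92.1 and 150 CPM.

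Nuclear factors and a transporter completed that side. Nr4a1, an immediate early nuclear receptor, stood at 588 CPM in WT cells and 956 in Mut cells, giving a ratio of 1.62 (1.48 to 1.78), and in microglia at 433 and 444. The log2 ratio of Nr4a1 was 0.65 in female and 0.22 in male macrophages. It was 0.87 in fibroblasts, 0.57 in endothelial cells and 0.21 in astrocytes, so the rise was not particular to macrophages. Its relative Nr4a3 stood at 89.2 and 147 CPM, and Fosl2, a subunit of the factor AP-1, at 68.6 and 115. Nr4a3 had log2 ratios of 2.04 in fibroblasts (3 WT UMIs), 0.65 in endothelial cells and -0.53 in microglia. Fosl2 had 0.64, 0.12 and 0.19 in the same order. Slc25a28, a mitochondrial iron carrier, stood at 73.5 and 126 CPM, and Anxa3, an annexin, at 107 and 181. Anxa3 was also higher in Mut microglia, at 315 CPM against 232, and was nearly level in male macrophages, with a log2 ratio of 0.09.

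**Figure D4:**
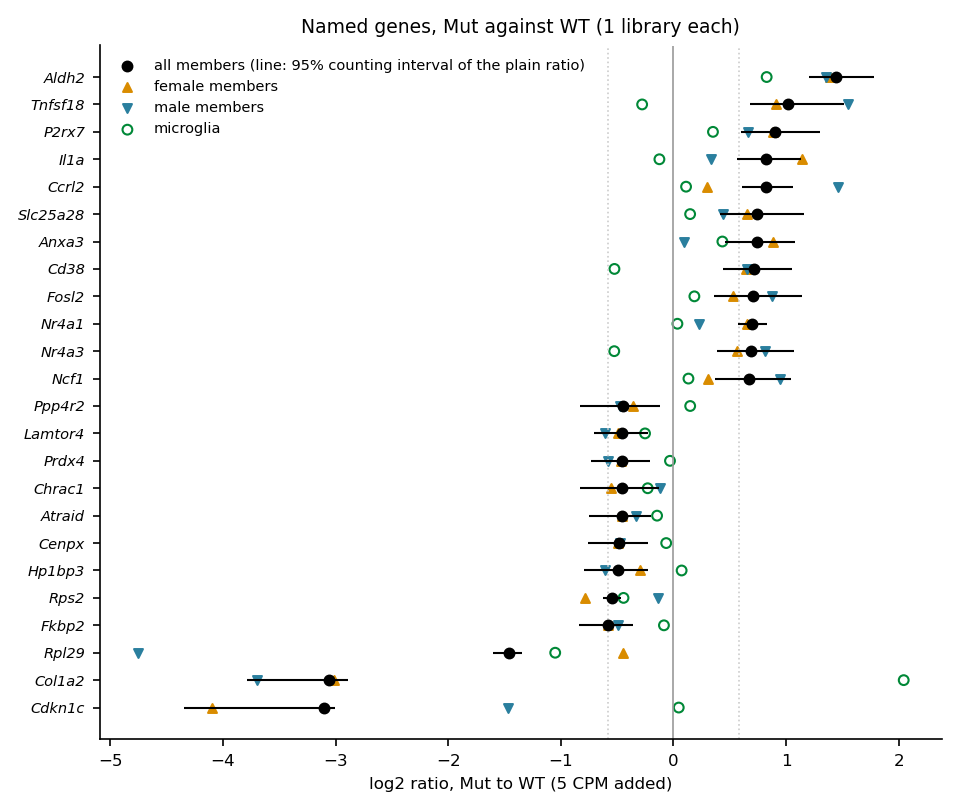
Log2 ratio of Mut to WT (x axis, CPM with 5 CPM added) of the 24 named genes in all macrophages with its counting interval, in female and male macrophages, and in microglia. Aldh2 lies near 1.4 in both sexes, and Col1a2 lies at -3.06 in macrophages and 2.04 in microglia. In Mut, Col1a2 was at 21.7 CPM in macrophages and 29.0 in microglia, below the 39.6 CPM of free RNA.

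The genes lower in Mut were led by 2 whose WT level came from a few cells. Cdkn1c, a cell-cycle inhibitor, stood at 121 CPM in WT cells and 9.64 in Mut cells, and 87.8% of its WT UMIs lay in 1 of the 5 WT cells that had any. Col1a2, a chain of fibroblast collagen, stood at 218 and 21.7 CPM, a log2 ratio of -3.06, and its WT UMIs lay in 3 cells, 55.4% of them in 1. At least 4 of 6 fibroblast genes were detected in 2 WT and 3 Mut macrophages, with a summed level of 461 and 99.2 CPM. Without the cells holding 4 markers of another cell type, neither gene reached 30 UMIs.

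Ribosomal and endoplasmic reticulum genes followed. Rpl29, a ribosomal protein gene with many processed copies, stood at 1033 CPM in WT cells and 371 in Mut cells, a log2 ratio of -1.46. The log2 ratio was -1.05 in microglia and -1.32 in astrocytes, and it was -0.45 in female and -4.75 in male macrophages. Rps2 stood at 2031 and 1393 CPM, and at 2764 and 2031 in microglia. The levels of both are uncertain because copies can share reads. Fkbp2, a chaperone-like isomerase, stood at 235 and 155 CPM, a ratio of 0.660 (0.561 to 0.779), with 0.941 in microglia. Prdx4, a peroxiredoxin, stood at 192 and 139 CPM, and Lamtor4, a subunit of the Ragulator complex on lysosomes, at 220 and 159. Atraid, a membrane protein, stood at 172 and 123 CPM. Free RNA was close to all of these: in Mut it was at 162 CPM for Fkbp2, 154 for Prdx4, 170 for Lamtor4, 146 for Atraid and 1545 for Rps2, each above the level in the Mut macrophages. Its part in these values was not tested. Of the 12 lower genes named, Cdkn1c, Col1a2 and Rpl29 were past 1.5-fold. The other 9, Fkbp2, Rps2, Hp1bp3, Cenpx, Atraid, Chrac1, Prdx4, Lamtor4 and Ppp4r2, had log2 ratios of -0.58 to -0.45, inside that limit.

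Lists of function showed small shifts of the median. Interferon-response genes were higher in Mut for 14 of 18 measured, 4 past 1.5-fold, with a median log2 ratio of 0.31. The median was -0.36 in female and 0.92 in male macrophages and 0.00 in microglia, so the direction was opposite in the sexes. Ifit3, an interferon-induced antiviral gene, stood at 3.92 CPM in WT cells and 11.6 in Mut cells, and Ifitm2, which blocks virus entry, at 494 and 473. Complement genes were higher for 10 of 12, with 2 past 1.5-fold and a median of 0.22, but the median was 0.063 in female and 0.061 in male macrophages. Clathrin genes were higher for 15 of 19, none past 1.5-fold, with a median of 0.19, or 0.01 in female and 0.36 in male macrophages. Lysosomal genes were higher for 24 of 31, none past 1.5-fold, with a median of 0.11, but the median was -0.04 in female and 0.24 in male macrophages. Immediate early genes were higher for 14 of 19, 1 past 1.5-fold, with a median of 0.19. Over all genes 51.0% were higher and 4.29% were past 1.5-fold higher.

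Among chemokines and cytokines, 14 of 21 were higher, 3 past 1.5-fold, and 2 were past it lower, with a median of 0.17. Over all genes 51.0% were higher, 4.29% were past 1.5-fold higher and 4.61% past it lower. Ccl2 had a ratio of 1.26 (1.22 to 1.29) and Cxcl2 of 1.14 (1.11 to 1.17), while in microglia both were lower in Mut. Ccl24 was lower in Mut macrophages, with a ratio of 0.838 (0.802 to 0.877). Il1rn, the interleukin 1 receptor antagonist, stood at 4.90 and 16.5 CPM, seen in 5 WT and 24 Mut cells, with free RNA at 28.9 and 12.9. Il10ra, a chain of the interleukin 10 receptor, stood at 43.1 and 69.9 CPM, with a log2 ratio of 0.56 in both sexes. Tfrc, the transferrin receptor, stood at 38.2 and 73.1 CPM, a ratio of 1.91 (1.35 to 2.78), with log2 ratios of 0.87 and 0.93 in female and male cells, but free RNA lay above both at 123 and 129 CPM. Itgb2, the beta chain of the leukocyte integrins and of complement receptor 3, stood at 23.5 and 43.0 CPM, with 0.77 and 0.70. Mertk, a receptor for dying cells, stood at 66.7 and 98.8 CPM, with 0.62 and 0.54. Il10ra, Tfrc, Itgb2 and Mertk were named by rank within their lists and do not stand for those lists. Efferocytosis genes were higher for 8 and lower for 7, none past 1.5-fold, with a median of 0.02. Iron and haem genes were higher for 10 and lower for 6, with a median of 0.06. Chemokine and cytokine receptors were higher for 14 and lower for 4, with a median of 0.09. Bmp2 had a ratio of 1.53 (1.41 to 1.65), and its log2 ratio was 0.62 in female cells and 0.15 in male ones.

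Some list genes had most of their UMIs in a few cells of 1 library. Spp1, osteopontin, stood at 666 CPM in WT cells and 155 in Mut cells, and 5 of the 12 WT cells with a UMI held 98.2% of its UMIs. Marco, a scavenger receptor, stood at 2.94 and 22.5 CPM, with 64.3% of its Mut UMIs in 1 cell. Timp1, an inhibitor of matrix proteases, stood at 1.96 and 16.1 CPM, with 95% of its Mut UMIs in 1 cell, and Ccl8, a chemokine, had 75% of its WT UMIs in 1 cell. Fabp5, a fatty acid carrier, stood at 1003 and 421 CPM, with 58.7% of its WT UMIs in 5 cells and free RNA at 2648 and 2946 CPM. The 13 mitochondrial genes were lower in Mut for 11, none past 1.5-fold, with a median of -0.24 in the macrophages and -0.23 in microglia.

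Cell-cycle genes were lower in Mut over all macrophages, and the sexes disagreed. Of 20 genes of G2 and mitosis, 19 were lower, 11 past 1.5-fold, beside 4.61% of all genes past it lower, and the median log2 ratio was -0.69 (microglia 0.31). The median was 0.90 in female and -1.13 in male macrophages. Cenpf, a kinetochore protein, stood at 219 CPM in WT cells and 117 in Mut cells, and Ube2c, a ubiquitin ligase partner of mitotic exit, at 217 and 95.6. In WT, 9 macrophages with both sex signals held 13.4% of UMIs but 43.8% of the G2 and mitosis UMIs, whereas in Mut 17 such cells held 10.5% and 10.8%. Without macrophages that held 4 markers of another cell type the median was 0.10, and without barcodes marked as doublets it was -1.39, so the direction depends on which barcodes are left out. S phase genes were lower for 16 of 18, 2 past 1.5-fold, with a median of -0.21, 0.46 in female and -0.90 in male cells.

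Macrophages with several mitotic genes were found in both libraries, at shares whose intervals overlap. At least 3 of the 20 G2 and mitosis genes were detected in 37.1% of WT macrophages (28.6 to 46.2) and 36.1% of Mut (30.6 to 42.0). After each cell was thinned to 1000 UMIs, the shares were 11.3% and 9.72%, against 17.8% and 22.4% of microglia and 15.3% and 14.4% of astrocytes, and no macrophage was too shallow to thin. Free RNA also holds these genes, at 1941 and 1984 CPM in sum against 2427 and 1557 in the macrophages, and the part of free RNA in these shares was not tested. By sex the thinned shares were 2 of 72 female (2.78%) and 5 of 31 male (16.1%) in WT, and 15 of 144 female (10.4%) and 6 of 88 male (6.82%) in Mut.

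**Figure D5:**
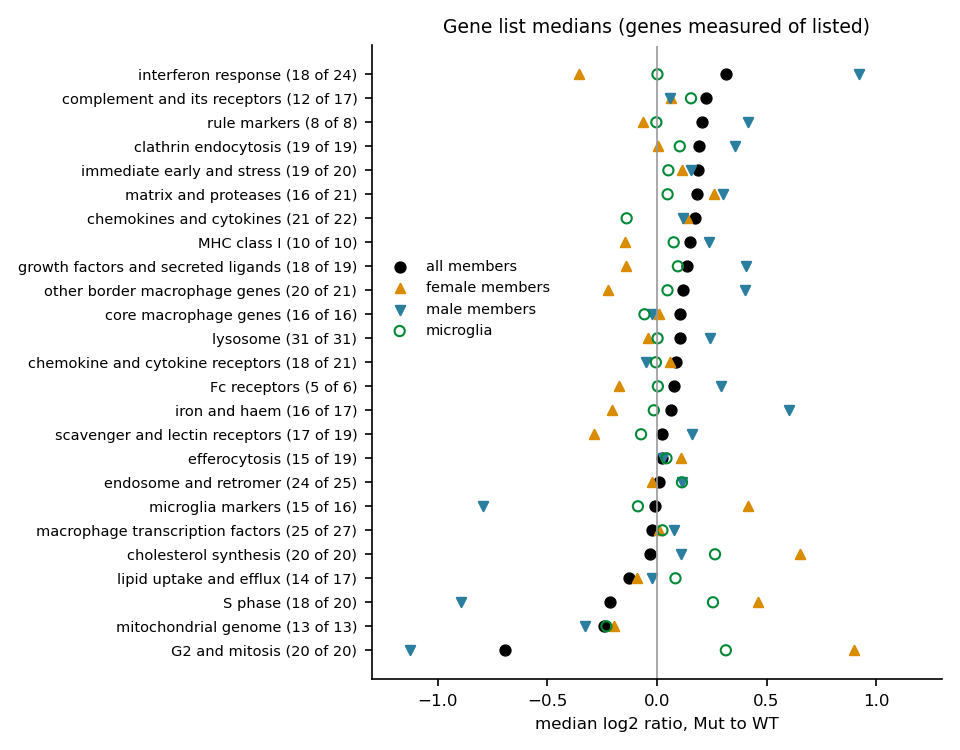
Median log2 ratio of Mut to WT (x axis) for each gene list in all macrophages, female macrophages, male macrophages and microglia, with the number of genes measured. The medians over all macrophages are 0.11 for the lysosome and 0.19 for clathrin genes, and female and male macrophages lie on opposite sides for the lysosome (-0.04 and 0.24), G2 and mitosis (0.90 and -1.13) and the interferon response (-0.36 and 0.92).

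Among themselves the macrophages nearly all held Lyve1, where the other rule genes were well covered. Of cells with at least 5 of the other 7 rule genes, 103 of 110 in WT (93.6%) and 261 of 270 in Mut (96.7%) had a Lyve1 UMI. The 7 WT and 9 Mut cells without one had a median of 5340 and 6023 UMIs, against 7375 and 7911 in the others. In the cells without Lyve1 UMIs Cd74 stood at 330 CPM in WT cells and 74.5 in Mut cells, against 166 and 112 in the others, so its direction differed between the libraries.

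Retnla split off a small group, a cut chosen after its values were seen. A Retnla UMI was found in 7 of 124 WT and 20 of 288 Mut macrophages, and 5 and 11 cells with at least 10 UMIs held 98.6% and 98.2% of all Retnla UMIs. The highest cell had 455 UMIs in WT and 530 in Mut. In WT 4 of the 5 were female and none male, and in Mut 7 of the 11 were female and 3 male. Mgl2 stood at 706 CPM in these cells in WT and 1330 in Mut, against 166 and 119 in macrophages with no Retnla UMI. Fcna stood at 1075 and 1434 CPM against 417 and 543, and Cd209f at 690 and 745 against 292 and 455. Cd36 was lower in them, at 16.0 and 47.2 CPM against 207 and 216, and Lyve1 stood at 738 and 1264 CPM against 1325 and 1616. These 5 genes were named after their values were seen. Of 22 genes picked to tabulate beside Retnla, 18 differed in one direction in both libraries and Mrc1, Ms4a7, Bmp2 and Cxcl2 did not. The share over all genes was not taken, so this count only describes the 5 and 11 cells. Fn1, counted among the 18, had no UMI in the cells with at least 10 Retnla UMIs. In these cells Retnla stood at 10399 and 16739 CPM, and in free RNA at 7.17 and 14.8.

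Principal components of the 412 cells, with each library centred, each carried little of the variance. The first carried 4.13% of the variance, with Ptn, Fabp7, Ptprz1, Fabp5 and Dbi on one side and Ccl2, Ccl7, Cxcl2, Ccl24 and Ier3 on the other. Ptn, Fabp7 and Ptprz1 are known from astroglia. Across the cells this component had a rank correlation of 0.50 with the UMIs per cell, 0.41 with the number of G2 and mitosis genes and 0.38 with the number of astrocyte genes, given as a description. The second carried 2.34%, with Cxcl2, Malat1, Ccl2, Ccl7 and Ier3 opposite ribosomal protein genes. The third carried 1.64%, with Ptn and Fabp7 opposite Cx3cr1, Hmgb2, Stmn1 and Tuba1b.

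RNA of other cell types was present in the macrophage barcodes. At least 4 of 6 astrocyte genes were detected in 8 WT (6.45%) and 18 Mut (6.25%) macrophages, and these genes summed to 788 and 677 CPM, against 2269 and 2628 in free RNA. None of the 6 was at 0 in either library. At least 3 of 9 microglia genes were detected in 25 WT (20.2%) and 91 Mut (31.6%) macrophages, with a sum of 428 and 449 CPM against 3217 and 3018 in microglia. The endothelial genes summed to 12.7 CPM in WT cells and 98.8 in Mut cells, the erythroid genes to 68.6 and 194. A doublet caller set to mark 0.8% of barcodes per 1000 kept marked 25 WT (20.2%) and 46 Mut (16.0%) macrophages, against 8.82% and 8.08% of all kept barcodes. The part of this RNA in the differences above was not tested beyond the counts without those cells.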

How the data were processed

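Single cells of 2 libraries, 1 WT and 1 Mut, were measured. The authors deposited raw UMI counts per gene and barcode for every barcode. Per the file headers, Cell Ranger 4 wrote the matrices. Cell Ranger, STAR and GRCm38 are named per the submitters' processing notes, and an annotation release is not given in the sources used here. In all, 93664707 and 97891513 UMIs were counted in WT and Mut.

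The UMI counts of chosen cells were added up within a library and scaled to CPM. Log2 ratios were taken after adding 5 CPM, for genes with at least 30 UMIs. Intervals are exact: Clopper-Pearson for shares, conditional binomial for ratios. A count of 0 is given the limit of 3 counts. Fibroblasts, endothelial cells and astrocytes needed at least 4 of 6 marker genes. With 1 library per genotype no test was made. Doublets were scored with Scrublet in scanpy 1.11.5 and stayed in, except in an alternative. TMM factors came from edgeR 4.0.16. Positions are those of GENCODE M21, and promoters those of RefSeq. The script was tested on simulated data.

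The members and the 38 gene lists were chosen with earlier results of these data known, and 2 symbols of the lists were not used here. Named genes were the 15 highest and 15 lowest against microglia with at least 100 CPM in the class where they were higher, the 12 highest and 12 lowest between the libraries with at least 50 UMIs and 100 CPM, one direction in both sexes and a level above free RNA, and per list the 2 with the highest CPM and those with the highest and lowest ratio. Mitochondrial, haemoglobin, sex-linked and rule genes were left out of the ranks. Of the genes these rules name, 2 are not reported here. MHC class II, Ccr2 and Katnal2 were named outside this rule, as checks. Alternatives changed the rule, filters, scaling, amount added, doublets, free RNA and sex.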

Additional observations from a re-analysis of the deposited data

Results flagged for a closer look

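Col1a2 was lower in Mut macrophages, with a log2 ratio of Mut to WT of -3.06, and higher in Mut microglia, with 2.04. Its direction was opposite in the 2 cell types, and the difference was not tested. Microglia held Col1a2 at 3.26 CPM in WT and 29.0 in Mut, and macrophages at 218 and 21.7. Free RNA held it at 17.7 and 39.6 CPM, in Mut above both cell types, and its part was not tested. The WT macrophage UMIs lay in 3 cells.

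The median log2 ratio of 20 G2 and mitosis genes was 0.90 in female macrophages and -1.13 in male macrophages. The directions were opposite, and the difference was not tested. The WT group held 72 female and 31 male macrophages, with summed levels of these genes of 952 and 2311 CPM, against 1827 and 1139 CPM in the 144 female and 88 male Mut macrophages.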

How the results depend on the processing

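No paired analysis was possible because the labels give no replicate numbers and each genotype has 1 library. The Mut to WT ratio of the macrophage share, 2.53, was above 1 in every alternative run. With at least 2 rule genes the share was 2.31% and 4.12% in WT and Mut, and their ratio 1.78. Without cells holding 3 microglia genes it was 0.898% and 1.95%, and with the rule applied to thinned cells 0.925% in WT. In female cells it was 1.88% in WT with a ratio of 1.46, and in male cells 0.728% with 4.38. Genes past 1.5-fold numbered 601 higher and 671 lower with at least 10 UMIs, 119 and 125 with at least 100 UMIs, 72 and 122 with 20 CPM added, 222 and 143 of 2106 in thinned cells, 603 and 591 with 1 CPM added, 670 and 316 in female cells, and 613 and 387 in male cells. They numbered 417 and 239 without cells holding 4 markers of another type, 470 and 284 with at least 6 rule genes, and 356 and 562 without cells holding 3 microglia genes, so the near balance of 378 and 406 moved in both directions. Scaling by TMM gave 433 higher and 352 lower, and removing doublets 440 and 450. Against microglia, 203 genes were higher and 61 lower with 1 CPM added, 55 and 7 with 20 CPM added, and 396 and 191 at 2-fold. Lower ones numbered 47 without cells holding 3 microglia genes and 106 without cells of other markers. Reversed in female cells were the medians of the rule markers (-0.063), other border macrophage genes (-0.22), MHC class I (-0.13), lysosome (-0.049), growth factors (-0.14), interferon response (-0.36), S phase (0.47), G2 and mitosis (0.90), katanin family (0.41) and astrocyte markers (0.93). Reversed in male cells were core macrophage genes (-0.022), lipid genes (0.021) and astrocyte markers (0.11). The lipid median was 0.079 with at least 4 and 0.041 with at least 6 rule genes, where the katanin median was 0.028 and the astrocyte one 0.25. In thinned cells immediate early genes turned to -0.00356 and Prdx4 to 0.14. Without doublets S phase was 0.17 and katanin 0.087. Without cells of other markers G2 and mitosis was 0.10, katanin 0.30 and astrocyte markers 0.091. The cause of these changes was not tested. The settings with at least 6 rule genes and without cells holding 4 markers of another type were chosen after seeing the data. Depth limits single genes, since Cd163 had a median of 1 UMI per WT macrophage.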
